A study of Mus musculus with 7 samples.

Results

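The cytosolic ribosomal protein genes were taken as every mouse gene whose symbol is Rpl or Rps followed by a number, with an optional closing letter a, l, x or y, together with Rplp0, Rplp1, Rplp2 and Rpsa. Genes of the Rps6k kinase family and symbols that mark a pseudogene were left out. This exclusion went by symbol alone. Rpl6l, which has a pseudogene biotype in RefSeq, therefore stayed among the members and in their summed counts. The rule matched 83 of the 27179 genes in each count table, 32 with a small subunit name and 51 with a large subunit name. RNA-seq counts were available for 7 lines derived from the end-stage lymphoma of mice with Eµ-Myc, a Myc transgene that is driven by an immunoglobulin heavy chain enhancer and leads to lymphoma of B cells. All lines were labelled as C57BL/6 and male and all carried the transgene. The 3 lines of the wild-type group kept normal Smchd1, which encodes a chromatin regulator that represses genes, and the 4 lines of the Smchd1 null group were labelled as homozygous for a gene trap, whereas the methods of the study give the allele as MD1. No source used here says whether lines of one group came from separate mice, so the p-values measure the spread between these lines.

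The labels give batch 1 and single-end sequencing for wild-type replicate 1, and batch 2 and paired-end sequencing for the other 6 libraries. Batch 1 held no Smchd1 null library. Total counts ran from 3626853 in wild-type replicate 1 to 7519549 in Smchd1 null replicate 4. Smchd1 itself lay between 219 and 248 CPM (counts scaled to the library total) in the wild-type lines and between 22.6 and 28.7 CPM in the Smchd1 null lines, so the level of the targeted gene followed the labels in every library. All 7 B lineage markers examined passed the filter on low counts, but they did not move together. Cd79a was 181 to 231 CPM in wild-type, 409 to 444 in Smchd1 null replicates 1 to 3 and 100 in replicate 4. Ebf1 was 54.0 to 87.1 CPM in wild-type and 25.5 to 57.2 CPM in null lines. Igll1 and Vpreb1 lay at 11.6 to 33.6 CPM in wild-type replicates 2 and 3. In wild-type replicate 1 and the null lines both lay at 0 to 4.02 CPM. Cd22, a B cell surface protein, lay between 180.0 and 341 CPM in 6 lines and at 25.4 CPM in Smchd1 null replicate 4, and that line also had the lowest summed level of the 7 markers, 471 CPM against 815 to 1362 CPM in the other lines. The summed level of 5 T cell markers was at most 0.532 CPM in any library, with Cd3e and Cd8a at 0 in all of them. Sums over the NK markers reached 2.53 CPM (Ncr1 at 0), over the myeloid markers 27.1 CPM and over the stroma markers 5.51 CPM. The erythroid marker Hba-a1 reached 0.532 CPM. Of the endothelial markers, Pecam1, which blood cells also carry, ranged from 44.1 to 219 CPM, Cdh5 stayed at or under 3.58 CPM and Kdr was at 0. Wild-type replicates 2 and 3 were much more alike than any other pair in their group or in the null group, with a chi-square per degree of freedom of 3.80 over genes against 16.7 to 60.2, and were kept as 2 samples.

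Ribosomal proteins assemble with ribosomal RNA into the small subunit, which reads the messenger RNA, and the large subunit, which joins amino acids. Their genes are expressed in all growing cells, and MYC is known as a driver of ribosome production. Cells need the proteins in near equal numbers, and their messengers share a start that couples translation to growth signals. The mouse genome also carries many processed pseudogenes of these genes, which are copies made from spliced messengers and put back into the genome. A read from such a copy and a read from the parent gene can be hard to tell apart, and this bears on every count given here.

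The sequences of 5 members and of a near copy of each are shown because reads from a member and from a near copy can be hard to tell apart. Gene positions are those of RefSeq on GRCm38. Each sequence is a 100-base coding stretch from the GENCODE M21 transcripts of GRCm38, written 5′ to 3′, with capitals at the bases that differ between the member and its copy. For each pair the stretch is the one without gaps that held the most differences. Rpl13 lies at chr8:123102350-123105244 and Rpl13-ps6, a pseudogene, at chr3:58987123-58987860, and both are shown from coding base 519 to 618 of the parent. They had 3 differences over 633 aligned bases.
Rpl13: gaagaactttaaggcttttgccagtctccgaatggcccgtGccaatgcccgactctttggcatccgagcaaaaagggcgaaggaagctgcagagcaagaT
Rpl13-ps6: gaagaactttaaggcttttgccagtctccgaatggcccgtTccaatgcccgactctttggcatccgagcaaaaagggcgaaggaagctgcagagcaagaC
Rps27 lies at chr3:90212667-90213648 and Rps27rt at chr9:114982366-114982739. Their first 100 coding bases were the same, as was the whole aligned length of 252 bases.
Rps27: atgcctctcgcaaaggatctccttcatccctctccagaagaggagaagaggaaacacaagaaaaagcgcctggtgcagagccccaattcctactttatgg
Rps27rt: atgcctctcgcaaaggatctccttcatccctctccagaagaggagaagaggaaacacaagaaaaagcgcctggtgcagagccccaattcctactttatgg
Rpl34 lies at chr3:130726827-130730398 and Rpl34-ps1 at chr6:71124589-71125001, with 2 differences over 351 aligned bases and 1 of them in the stretch from coding base 33 to 132.
Rpl34: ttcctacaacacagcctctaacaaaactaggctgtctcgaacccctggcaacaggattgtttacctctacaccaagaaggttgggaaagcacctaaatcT
Rpl34-ps1: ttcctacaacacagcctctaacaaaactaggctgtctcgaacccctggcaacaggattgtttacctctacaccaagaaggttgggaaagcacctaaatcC
Rpl32 lies at chr6:115805514-115808743 and Rpl32l at chr10:20208439-20209030, and both match the naming rule. They differed at 5 bases of the stretch from coding base 179 to 278, and at 16 of 404 aligned positions, 6 of them gaps.
Rpl32: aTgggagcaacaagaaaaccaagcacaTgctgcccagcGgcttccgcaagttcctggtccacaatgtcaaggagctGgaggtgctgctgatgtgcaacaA
Rpl32l: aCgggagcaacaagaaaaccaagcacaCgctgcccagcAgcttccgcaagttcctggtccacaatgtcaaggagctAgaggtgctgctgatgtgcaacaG
Rps12 lies at chr10:23785183-23787383 and Rps12-ps24 at chr8:36025679-36026148, with 5 differences in the stretch from coding base 259 to 358. Over 384 aligned positions they differed at 22, 15 of them gaps.
Rps12: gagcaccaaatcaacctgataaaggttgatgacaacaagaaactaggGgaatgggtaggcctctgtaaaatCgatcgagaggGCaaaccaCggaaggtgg
Rps12-ps24: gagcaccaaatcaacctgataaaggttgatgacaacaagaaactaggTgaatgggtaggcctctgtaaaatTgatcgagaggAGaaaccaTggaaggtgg

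Counts at the entries of 3 of these pairs are given next, and whether shared sequence set them was not tested. In paired-end libraries Rpl13, a large subunit protein gene, held between 5.98 and 9.32 CPM, while its pseudogene Rpl13-ps6 held between 641 and 769.7 CPM. Rps27 held between 13.0 and 22.7 CPM and the identical Rps27rt between 492 and 854 CPM. Rpl34 held between 39.1 and 84.3 CPM and Rpl34-ps1 between 481 and 881 CPM. In all 3 pairs the copy held more counts than the gene with introns in every library.

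Such copies were frequent among the members. Of the 80 members with a coding transcript in GENCODE M21, 74 had at least 1 copy with 90% or more identity over 70% or more of the coding sequence, with a median of 9 copies and a highest number of 78, for Rpl7a and Rpl21. For 50 members the count tables had an entry for at least 1 copy, 133 entries in all. The median member had 60.0% of its 100-base windows in no other gene, and 34 members had under 50%. The 78 mitochondrial ribosomal protein genes, which encode the ribosome of that organelle, had a median of 100% and 4 genes under 50%. Rpl22, Rpl32, Rpl3l, Rps21, Rps27l and Rps3 were among the expressed members with no shared window.

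The member's own entry held under 50% of the summed counts of member and copies for 29 of the 50 members with counted copies, and under 10% for 7 of them (mean of paired-end libraries). Rpl13 held 1.14%, Rps27 2.59%, Rpl24 3.83%, Rpl17 4.49%, Rpl37 4.62%, Rpl34 6.72% and Rpl28 8.53%. In the same order, 21.1%, 1.63%, 19.9%, 22.9%, 78.5%, 69.0% and 53.2% of their windows were unshared. These 7 members and their copies were singled out after their values were seen. How reads that fit several places were treated in the counting is not given in the sources used here, so the values below are counts at a gene's entry and not the transcripts of that gene alone.

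**Figure D1:**
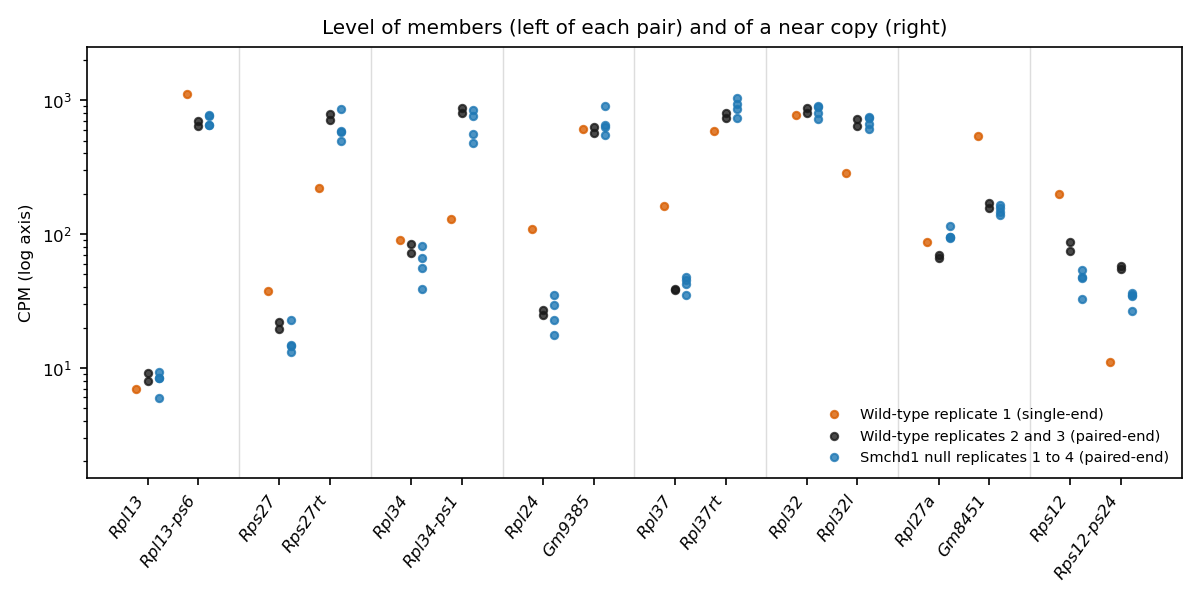
Level in CPM, on a log axis, of 8 members (left of each pair) and a near copy (right) in each of the 7 libraries, with 1 point per library. In the paired-end libraries Rpl13 sits between 5.98 and 9.32 CPM and Rpl13-ps6 between 641 and 769.7 CPM, whereas Rpl32 and Rpl32l sit close together in those libraries.

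The share of all counts held by the members was similar in both groups. It was 3.06%, 3.02% and 3.29% in wild-type replicates 1 to 3 and 2.89%, 3.25%, 3.26% and 2.91% in Smchd1 null replicates 1 to 4. The means were 3.13% ± 0.147 (SD, n = 3) and 3.08% ± 0.206 (SD, n = 4), and the groups overlapped. Without the single-end library the wild-type mean was 3.16% ± 0.190 (SD, n = 2). Small subunit members held between 1.10% and 1.30% and large subunit members between 1.78% and 2.00% of the counts in any library. With the counts of the copies added, the share ran from 4.71% to 5.42% in wild-type lines and from 4.72% to 5.49% in Smchd1 null lines. In these bulk samples, a change in the mix of cells and a change in the RNA of each cell cannot be told apart.

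Levels at the members' own entries were far from equal. Per kilobase of gene length, over all libraries, Rpl8 was highest at a mean of 3181 CPM per kb, followed by Rplp1 at 2759, Rpl41 at 2756, Rps15 at 1676 and Rpl32 at 1638 CPM per kb. Rpl8 has no copy under the rule above. Its level was 2246, 2716 and 2777 CPM in wild-type replicates 1 to 3 and 2525, 2721, 2779 and 3432 CPM in Smchd1 null replicates 1 to 4, and the groups overlapped. At the low end of the members that passed the filter were Rpl3l at 1.11 CPM per kb, Rpl39 at 1.39, Rpl13 at 10.3, Rpl36a at 16.5 and Rpl31 at 17.1 CPM per kb. Rpl39, a small protein at the exit tunnel of the ribosome, had only 0 to 8 counts in any library. Rps4l, Rpl10l and Rpl39l, paralogs with a restricted expression pattern, had 0 counts in all 7 libraries, where 3 counts correspond to between 0.399 and 0.827 CPM.

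In the paired-end libraries, the lowest and the highest member by level per kilobase were 1.24 and 3277 CPM per kb. Across 78 members the share of unshared windows and the level per kilobase in paired-end libraries had a Spearman rho of 0.44 across genes, which share libraries and gene models and are not independent replicates. The 44 members with at least 50% of windows unshared had a median of 303 CPM per kb and the 34 with less had a median of 166 CPM per kb. The SD of log2 CPM per kb was 2.27 for the own entries of 80 members and 2.31 for 78 sums with the copies' counts added. Both SDs include Rpl3l and Rpl39, which lay at very low levels and had no counted copy. The SDs therefore do not show whether adding copies narrowed the spread of the other members.

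**Figure D2:**
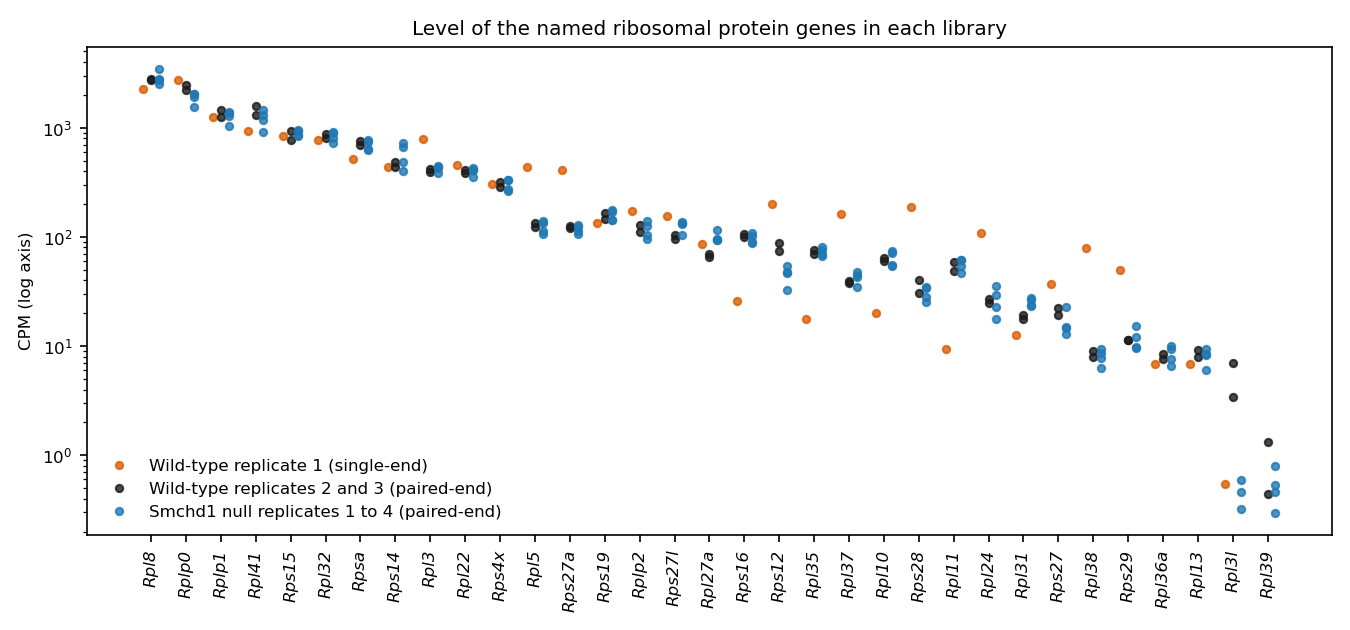
Level in CPM, on a log axis, of the 33 named members that passed the filter, ordered by mean level, with 1 point per library, where levels of 0 in Rpl3l and Rpl39 are not drawn. The single-end wild-type library lies apart from the paired-end libraries in both directions, as for Rpl38 at 78.6 CPM and Rpl11 at 9.37 CPM, while the paired-end libraries of both groups mostly lie together.

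Expression was then compared between Smchd1 null and wild-type lines with voom and sample weights, which fits a linear model to log2 counts and lets more variable libraries count less. The test was run on the 12303 genes that reached 0.5 CPM in 3 libraries or more, and the false discovery rate (FDR) was taken over all of them. Of the 83 members, 80 passed the filter. The two-sided test called 4 of the 80 members differentially expressed (DE) at an FDR under 0.05, or 2 higher and 2 lower in Smchd1 null. Over all genes tested, 11.9% were DE, 5.06% higher and 6.85% lower. The median log2 fold change (FC) of the 80 members was 0.04 and that of all genes tested was -0.01, with 50 members above 0 and 30 below.

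Most members differed little between the groups. The log2 FC was under 0.2 in size for 64 of 80 members, against 37.0% of all genes tested. The 95% interval of the FC lay wholly within a 1.5-fold change in either direction for 60 of 80 members, against 37.2% of all genes tested. Among genes with a mean of at least 10 CPM, the SD of log2 CPM over the 6 paired-end libraries had a median of 0.17 for 76 members and 0.27 for all 8910 genes. These are descriptions of highly expressed genes, and level was not matched between members and other genes.

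**Figure D3:**
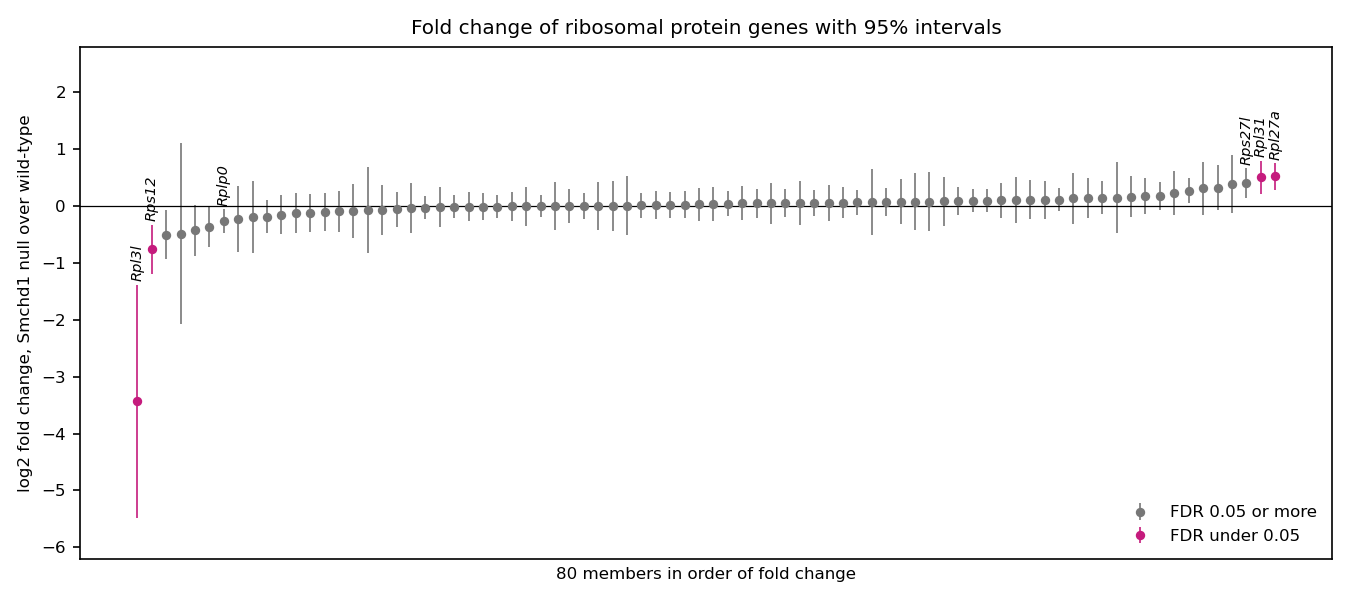
Log2 fold change of Smchd1 null over wild-type for the 80 members tested, in order, with 95% intervals from the voom fit with sample weights and the 4 DE members in colour. Nearly all members lie close to 0, with Rpl3l and Rps12 at the low end and Rpl27a and Rpl31 at the high end.

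Rpl27a, a large subunit gene at chr7:109519195-109522369, was higher in Smchd1 null. Its level was 86.9, 65.9 and 69.8 CPM in wild-type replicates 1 to 3 and 94.9, 93.2, 115 and 94.4 CPM in Smchd1 null replicates 1 to 4. All 4 null lines lay above all 3 wild-type lines, and the log2 FC was 0.52 ± 0.10 (SE) with an FDR of 0.021 (limma). Gm8451, a pseudogene on chromosome 1 with 99.1% identity, held 542 CPM in the single-end library and between 139 and 172 CPM in the others. With the counts of the copies added to Rpl27a, the log2 FC was 0.04 and the FDR was 0.89 (limma). With the copies added and the single-end library left out, they were 0.07 and 0.64 (limma).

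Rpl31, a large subunit gene at chr1:39367851-39371911, was also called higher. It lay at 12.7, 17.6 and 19.1 CPM in wild-type and at 23.7, 27.8, 26.3 and 23.3 CPM in Smchd1 null lines, with no overlap. The log2 FC was 0.51 ± 0.13 (SE, FDR of 0.039, limma). Without wild-type replicate 3 it was 0.77 (FDR of 0.81, limma). With its copies added the log2 FC was 0.24 and the FDR was 0.47. The entries Rpl31-ps9, Rpl31-ps11 and Rpl31-ps12 each had overlapping groups, and Rpl31-ps9 held 53.5 to 69.9 CPM in paired-end libraries, more than Rpl31 did.

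Rps12, a small subunit gene, was lower in Smchd1 null lines. Its level was 199.6 CPM in the single-end wild-type library, 74.8 and 87.1 CPM in the other wild-type libraries, and 46.9, 54.3, 47.7 and 32.4 CPM in the null libraries. The groups did not overlap, and the log2 FC was -0.76 ± 0.19 (SE, FDR of 0.038, limma). Without the single-end library it was -0.73 (FDR of 0.020, limma). It was -1.39 without wild-type replicate 2 (FDR of 0.75, limma), -1.28 without wild-type replicate 3 (FDR of 0.69, limma) and -1.26 with voom alone (FDR of 0.25). Only 16.6% of its windows were unshared. Rps12-ps24, whose sequence is shown above, lay at 54.5 and 57.5 CPM in the paired-end wild-type libraries and at 35.0, 36.3, 34.3 and 26.7 CPM in the null libraries, which was likewise lower in all null lines, but at 11.0 CPM in the single-end library. With all copies added, Rps12 had a log2 FC of -0.72 (FDR of 0.015, limma).

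Rpl3l, a muscle form of the large subunit protein Rpl3, had the lowest log2 FC, -3.43 ± 0.89 (SE, FDR of 0.044, limma), at very low counts. It had 2, 21 and 48 counts in wild-type replicates 1 to 3 and 4, 2, 3 and 0 counts in the null libraries. The difference lay in wild-type replicates 2 and 3, and the single-end wild-type library was within the range of the null lines, at 0.551 CPM. Without wild-type replicate 3 the log2 FC was -1.98 (FDR of 0.84, limma). The size of a fitted change at such counts depends on the prior count.

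Most of these DE calls were lost under other models. With voom alone, which has no weight per library beyond that set by the counts, 0 of 80 members were DE and 0.0975% of all genes. The quasi-likelihood test of edgeR gave 0 of 80 members and 0.0975% of all genes. DESeq2 called 1 member, Rps12, and 3.1% of all genes. Voom with sample weights on the 6 paired-end libraries called 5 members and 13.6% of all genes, and the 5 were the 4 above and Rps27l. With copies added to the members, 3 of 78 were DE, against 12.1% of all entries, namely Rps12, Rpl3l and Rpl36a. Without Smchd1 null replicate 4, the line with the lowest summed level of B lineage markers, 3 members were called higher and 1 lower, and 0 members were called without wild-type replicate 2, wild-type replicate 3 or Smchd1 null replicate 2. At an unadjusted p under 0.05, voom alone gave 6 members and 11.3% of all genes and edgeR gave 8 members and 11.5% of all genes.

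Rps27l, a paralog of Rps27 known as a target of p53, lay just outside the threshold. It had no shared window. It lay at 155 CPM in the single-end library, at 94.8 and 103 CPM in wild-type replicates 2 and 3, and at 135, 138, 130.4 and 104 CPM in the null lines. The log2 FC was 0.41 ± 0.11 (SE, FDR of 0.051, limma), and the paired-end libraries alone gave 0.42 with an FDR of 0.035 (limma). It was 0.16 with voom alone (FDR of 0.81), 0.13 with edgeR (FDR of 0.85), and 0.12 and 0.16 without wild-type replicate 2 or 3 (FDR of 0.98 and 0.94, limma). Smchd1 null replicate 4 lay close to wild-type replicate 3.

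By separation of the groups, all null lines lay above all wild-type lines for 3 of the 80 members and below for 3, against 6.35% and 6.85% of all genes tested. The higher members were Rpl12, Rpl27a and Rpl31 and the lower members were Rplp0, Rps12 and Rps7. Of these, Rpl12 (FDR of 0.097), Rplp0 (FDR of 0.098) and Rps7 (FDR of 0.16, all limma) were not DE, and Rpl12 and Rps7 were named after their values were seen.

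The stalk of the large subunit, which recruits elongation factors, is built of Rplp0, Rplp1 and Rplp2. Rplp0, its base, lay at 2754, 2234 and 2453 CPM in wild-type and at 1907, 2028, 2019 and 1534 CPM in Smchd1 null lines. Wild-type had a mean of 2480.4 ± 261 CPM (SD, n = 3) and Smchd1 null 1872 ± 232 CPM (SD, n = 4), with no overlap, and the log2 FC was -0.26 ± 0.09 (SE), with a 95% interval from -0.48 to -0.05 before adjustment. Rplp1 had a log2 FC of -0.01 ± 0.10 (SE, FDR of 0.97, limma), and its level ran from 1240.5 to 1442 CPM in wild-type and from 1039 to 1406 CPM in Smchd1 null lines. Rplp2 had a log2 FC of 0.00 ± 0.13 (SE). The groups overlapped for Rplp1 and Rplp2.

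Rpl5 and Rpl11 bind the 5S ribosomal RNA and, when free, restrain Mdm2. Rpl5 lay at 436 CPM in the single-end library and between 106 and 141 CPM in every other library, with a log2 FC of -0.08 and a 95% interval from -0.56 to 0.40. Rpl11 went the other way, at 9.37 CPM in the single-end library and between 47.1 and 61.5 CPM in the others, with a log2 FC of 0.15 and a 95% interval from -0.47 to 0.78. Neither was DE. Rpl22, whose protein also binds cellular RNAs and which had no shared window, ranged from 387 to 452 CPM in wild-type and from 357 to 425 CPM in null lines, with a log2 FC of 0.00 and a 95% interval from -0.20 to 0.19.

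Other members with a role of their own also had groups that overlapped. Rpsa, a protein at the back of the small subunit, lay between 521 and 772 CPM in all libraries, and Rps4x, encoded on the X chromosome, between 265 and 332 CPM. Rps19, whose mutation causes Diamond-Blackfan anaemia in people, lay between 133 and 175 CPM with a log2 FC of 0.06 ± 0.11 (SE, FDR of 0.76, limma). Rpl3, next to the catalytic centre, lay at 791 CPM in the single-end library and between 382 and 448 CPM elsewhere. Rps27a, made as a fusion with ubiquitin, lay at 408 CPM in the single-end library and between 107 and 129.8 CPM elsewhere. Rps15 had a log2 FC of 0.10 ± 0.11 (SE) and Rpl41, which encodes the shortest of the proteins, -0.13 ± 0.15 (SE).

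The single-end library was judged apart because its counts departed from those of the paired-end libraries member by member. Its CPM was more than 2-fold above the mean of wild-type replicates 2 and 3 for 15 of 79 members and more than 2-fold below for 13. A level of at least 10 CPM was judged on the mean over all 7 libraries, the single-end one included. Rpl38, at a mean of 18.2 CPM, reached it through its 78.6 CPM in the single-end library. Among members with at least 10 CPM, 27 of 76 (35.5%) were past 2-fold, against 13.9% of all genes at that level. By the same measure Smchd1 null replicate 1 had 1 member past 2-fold, replicate 4 also had 1, and replicates 2 and 3 had 0. The SD of the log2 ratio over members was 1.10 in the single-end library and between 0.21 and 0.30 in the null libraries. Over all genes at that level it was 0.99 in the single-end library and 1.13 in Smchd1 null replicate 4, where the members had 0.30.

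Rpl38 was the furthest above, at 78.6 CPM against 7.87 and 9.09 CPM in wild-type replicates 2 and 3, a ratio of 9.27. Rps28 lay 5.36-fold above, Rps29 4.39-fold, Rpl37 4.22-fold and Rpl24 4.19-fold. Rpl3l apart, Rpl11 was the furthest below, at a ratio of 0.175, followed by Rpl35 at 0.242, Rps16 at 0.250 and Rpl10 at 0.326. None of these 9 was DE, and the null lines lay with the paired-end wild-type lines for each of them, as Rpl38 did at 6.25 to 9.32 CPM.

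At the median, the departures were larger in members with under 50% of their windows unshared. The largest departures named above lay on both sides of this limit. Rpl38, Rps29, Rpl37, Rps16 and Rpl3l had at least 50% unshared, and Rps28, Rpl24, Rpl11, Rpl35 and Rpl10 had under 50%. The median size of the log2 ratio was 1.10 for the 34 members with under 50% of their windows unshared, of which 19 were past 2-fold. It was 0.42 for the 43 other members with a coding transcript in GENCODE M21 and a count in the single-end library, of which 8 were past 2-fold. Rpl32l and Rpl6l, which had no such transcript, were left out, at log2 ratios of -1.27 and 0.73. For the 50 members with counted copies, the SD of the log2 ratio was 1.08 at their own entries and 0.90 with the copies added, and the number past 2-fold went from 19 to 16. Read layout, batch, cell line and depth all differ for this 1 library and cannot be told apart.

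**Figure D4:**
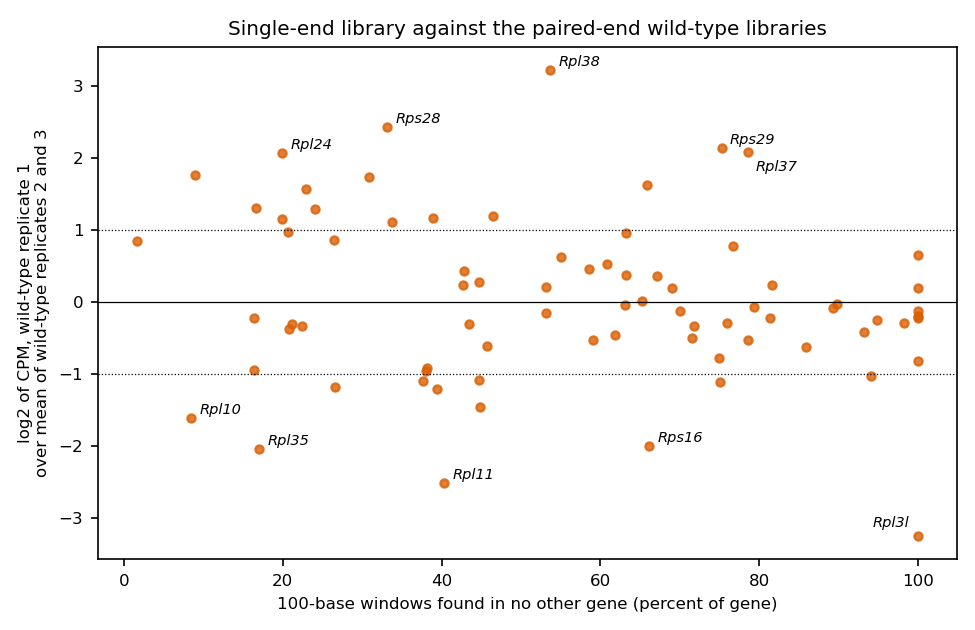
Log2 ratio of CPM in the single-end wild-type library to the mean of the paired-end wild-type libraries (vertical axis) against the percentage of 100-base windows of each member that occur in no other gene (horizontal axis), with 1 point per member and dotted lines at 2-fold. Points are the members with a coding transcript in GENCODE M21 and a count in the single-end library. Members with under 50% of windows unshared spread widely on both sides, with 19 of 34 past 2-fold against 8 of 43 of the others.

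Several members moved in single null lines together with other genes of their chromosome. For each null library, the log2 CPM minus the mean of wild-type replicates 2 and 3 was taken after TMM scaling, and members with at least 10 CPM were set beside the other genes of the chromosome, members and copies left out. On chromosome 18, the 220 other genes had a median of 0.57 in Smchd1 null replicate 3 and 0.50 in replicate 4, but 0.07 in both replicates 1 and 2. Rps14, a small subunit gene lost in the human 5q deletion syndrome, lay at 0.65 and 0.49 in replicates 3 and 4 and at -0.18 and 0.07 in replicates 1 and 2. In CPM it was 404, 488, 720 and 671 in Smchd1 null replicates 1 to 4 and 437, 434 and 489 in wild-type replicates 1 to 3. The pooled log2 FC of Rps14 was 0.17 ± 0.16 (SE, FDR of 0.51, limma).

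Members of other chromosomes were mixed. On chromosome 3 the 405 other genes had a median of -0.54 in Smchd1 null replicates 1 and 2, -0.01 in replicate 3 and -0.05 in replicate 4. Rps27 lay at -0.65, -0.51, 0.14 and -0.52 in replicates 1 to 4 and Rpl34 at -0.98, -0.51, 0.06 and -0.29, so that replicate 4 did not follow its chromosome for these 2 genes. On chromosomes 15 and 16 the other genes had medians of 0.56 and 0.53 in replicate 4. There Rpl30 lay at 0.46, Rpl8 at 0.27, Rpl24 at 0.40 and Rpl35a at 0.36, whereas Rpl3 lay at 0.04 and Rpl37 at 0.09. Rpl30, Rpl34 and Rpl35a were chosen for their chromosome, after their values were seen. On chromosome 1 the other genes had medians from -0.26 to -0.17, whereas its 3 members had medians of 0.08, 0.11, 0.25 and 0.02 in replicates 1 to 4. On chromosome 12 the other genes had medians from -0.34 to -0.26. Rps7 lay below 0 in every null line, at -0.55, -0.22, -0.15 and -0.48 in replicates 1 to 4. Rps29 lay at -0.19, 0.42, 0.11 and -0.29. The other genes of chromosome 19, which holds no member, had medians from -0.61 to -0.50 in all 4 null lines.

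In all 4 null lines, Rpl34-ps1 and Rps27rt, copies of chromosome 3 genes, lay nearer to their parent gene than to the median of the chromosome they lie on. Rpl34-ps1, on chromosome 6, lay at -0.79, -0.62, 0.01 and -0.19 in Smchd1 null replicates 1 to 4, whereas the other genes of chromosome 6 had medians between 0.06 and 0.15. Rps27rt, on chromosome 9, lay at -0.60, -0.41, 0.19 and -0.41. The other genes of chromosome 9 had medians between -0.03 and 0.09. Gm9385, a copy of Rpl24 on chromosome 9, lay at -0.10, 0.12, 0.10 and 0.56, where Rpl24 lay at -0.54, -0.21, 0.20 and 0.40, so that it was nearer to its own chromosome in replicates 1 to 3 and nearer to Rpl24 in replicate 4. These values describe single lines and were not tested.

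**Figure D5:**
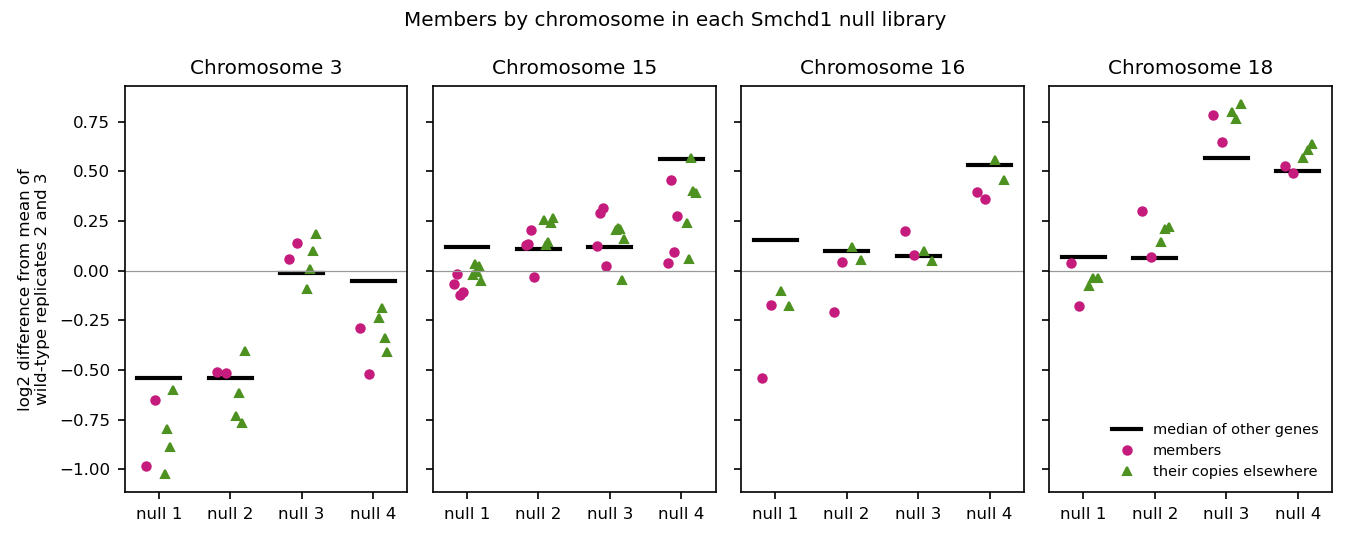
Log2 difference of each Smchd1 null library from the mean of wild-type replicates 2 and 3, for members on 4 chromosomes (circles), for their copies on other chromosomes (triangles) and for the median of the other genes of the chromosome (bars). Members of chromosome 18 and their copies lie between -0.18 and 0.30 in null replicates 1 and 2 and between 0.49 and 0.84 in replicates 3 and 4.

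Other genes of the translation pathway were counted in the same fit, in which 11.9% of all genes tested were DE. Of 7 ribosomal protein genes whose names fall outside the rule, 1 was DE and higher, Rpl7l1, a relative of Rpl7 that acts in ribosome assembly (log2 FC 0.52 ± 0.12 (SE), FDR of 0.033, limma). Its level was 255, 138 and 143 CPM in wild-type and 209, 212, 202 and 163 CPM in Smchd1 null lines, which overlapped. With edgeR the FDR of Rpl7l1 was 0.85. Of 6 elongation factors, 1 was DE and lower, Eef1g, a subunit of the exchange factor of eEF1A (log2 FC -0.69 ± 0.11 (SE), FDR of 0.013, limma). It lay at 793, 787 and 931 CPM in wild-type and at 487, 574, 514 and 442 CPM in null lines, with no overlap, and is encoded on chromosome 19. With edgeR the FDR of Eef1g was 0.17. In these 2 lists edgeR called 0 genes, and DESeq2 called 0 of the 7 and 1 of the 6.

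Of 35 initiation factors, 2 were higher (Eif3m and Eif4h) and 1 was lower (Eif3a, also on chromosome 19), with a median log2 FC of 0.18. At an unadjusted p under 0.05 there were 13 of the 35, 11 higher and 2 lower, against 31.8% of all genes (limma). Both edgeR and DESeq2 called 0 of the 35. Of 6 other messengers with a terminal oligopyrimidine start and 6 genes of mTOR control, 0 were DE, and 0 had an unadjusted p under 0.05 (limma) or were called by edgeR or DESeq2. For Mtor this did not reflect a steady level. It lay at 656.8 and 636.7 CPM in Smchd1 null replicates 1 and 2 but at 143.9 and 75.8 CPM in replicates 3 and 4. The wild-type lines lay in between, and the log2 FC of Mtor was -0.08 ± 0.49 (SE). Of 77 mitochondrial ribosomal protein genes that passed the filter, 9 were higher and 0 lower, beside the 5.06% and 6.85% of all genes given above. At an unadjusted p under 0.05, 28 were higher and 9 lower, or 37 in all, against 31.8% of all genes (limma). The list had a median log2 FC of 0.19. Mrpl33 was the clearest by FDR, at 37.5, 31.8 and 32.0 CPM in wild-type and at 50.4, 49.8, 46.5 and 47.5 CPM in null lines, with no overlap (log2 FC 0.61 ± 0.09 (SE), FDR of 0.011, limma). Its FDR was 0.23 with edgeR, which called 0 of the 77, and DESeq2 called 2.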

How the data were processed

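RNA-seq libraries of 7 lymphoma cell lines were analysed, 3 wild-type and 4 Smchd1 null. According to its methods section and the labels, the authors aligned reads to mm10 with Subread and summarised them by gene with featureCounts. The deposited values are raw counts per Entrez gene with the gene length beside them. The submitters' processing notes also name CASAVA (version 1.8.2), edgeR (version 3.8.2) and limma (version 3.22.0). The treatment of multi-mapping reads and of strand is not given in the sources used here.

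Symbols and positions came from RefSeq (GRCm38.p6, the build of mm10) by Entrez identifier. A symbol was found for 25275 of 27179 genes, which held 98.2% of counts. CPM is the count over the library total. Members' coding sequences were compared with all GENCODE M21 transcripts (blastn, at least 90% identity over at least 70% of the coding length), and 100-base windows of 1 transcript per member were matched exactly on both strands. Copies were kept where RefSeq gives a pseudogene biotype or the symbol begins with Gm or Rp. Of 133 counted copy entries, 121 had a pseudogene biotype.

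Differential expression was tested with limma 3.58.1 and edgeR 4.0.16 under R 4.3.3. Genes that reached 0.5 CPM in 3 libraries or more were retained, scaled by TMM and fitted with voomWithQualityWeights, lmFit and eBayes, as in the methods of the study, with Benjamini-Hochberg adjustment over all genes and an FDR threshold of 0.05. Variance weights were 0.246 for wild-type replicate 1, 3.78 and 3.06 for wild-type replicates 2 and 3, and 0.249 to 1.60 for the null lines. DESeq2 (version 1.42.0) and further settings served as alternatives. The fit was tested on simulated data. The 95% intervals come from the limma fit and reflect the spread between libraries, and the floors of 3 counts cover counting error only.

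The members and all gene lists were chosen with earlier results of these data known. Members are named if DE (up to 10 in each direction), by role, by the 5 highest and 5 lowest levels per kilobase, or by the 5 largest departures of the single-end library in each direction. Adding copies to members was chosen after seeing the data. The results of some listed genes are not reported here.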

Additional observations from a re-analysis of the deposited data

Results flagged for a closer look

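Among 34 values screened in the 4 Smchd1 null lines, 1 had a line far from the others. This was Smchd1 null replicate 3 for Rpl27a, with 115 CPM, whereas the remaining null lines ranged from 93.2 to 94.9 CPM. Chance alone flags about 1 in 20 such groups, or 1.7 of 34 values.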

How the results depend on the processing

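Voom with sample weights called 2 members higher and 2 lower. The higher count was 1 with no filter on low counts, 0 with voom alone, the replicate block, wild-type replicates 2 and 3 summed, edgeR on all or on paired-end libraries, DESeq2 and copies added, 1 with copies added and no single-end library, and 4 at an FDR threshold of 0.1. The lower count was 1 with at least 10 counts in every sample and with DESeq2. It was 0 with voom alone, the replicate block, wild-type replicates 2 and 3 summed, and edgeR on all or on paired-end libraries. It was 3 with copies added, and at an FDR threshold of 0.1 Rplp0 was also called lower (FDR of 0.098, limma). Leaving out 1 library gave 0 to 3 higher and 0 to 2 lower. Both counts were 0 without wild-type replicate 2, without wild-type replicate 3 and without Smchd1 null replicate 2, and they were 1 and 0 without Smchd1 null replicate 1 and 1 and 1 without Smchd1 null replicate 3. The causes were not tested. Rpl36a changed sign, from 0.08 to a called -0.60, when copies were added, and the entry added was the pseudogene Gm6525. Replicate numbers did not pair the samples, with correlations of -0.15, 0.23 and -0.18 for same-numbered lines. The median log2 FC of members stayed between -0.003 and 0.14, and the null over wild-type ratio of their summed share between 0.954 and 1.02 (0.986 as reported), both within the spread between replicates. Depth limits Rpl3l, Rpl39 and the 3 members at 0 counts. Of the named members' values under other settings, 486 kept their direction and call, 47 lost the call, 6 gained it and 115 uncalled values changed sign.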
